A study of Mus musculus with 119 samples.

Results

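The genes examined are the 5 that encode the enzymes which make and break down 2-arachidonoylglycerol (2-AG) in the brain, Dagla, Daglb, Mgll, Abhd6 and Abhd12. They were chosen by name and role from the 55291 genes of the deposited count tables, after results of these data were known, and all 5 were followed in all 119 libraries. Every member passed the filter on low counts in each comparison, and the lowest count of any member in any library was 83.

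2-AG is the most abundant endocannabinoid (eCB) of the brain. A neuron makes it from diacylglycerol when its calcium rises or its Gq-coupled receptors are stimulated, and it travels backwards across the synapse to the CB1 receptor, the receptor that THC also binds. Diacylglycerol lipase alpha (Dagla) is the enzyme held responsible for most 2-AG of the adult brain, and diacylglycerol lipase beta (Daglb) is its paralog, best known from microglia and macrophages. Monoacylglycerol lipase (Mgll) carries out most of the breakdown, largely from the presynaptic side, and yields arachidonate for prostaglandin synthesis. The alpha/beta hydrolases ABHD6, a postsynaptic membrane enzyme, and ABHD12, an enzyme that also hydrolyses lysophosphatidylserine, do the rest.

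Female and male C57BL/6J mice (the strain on the labels, given as C57BL/6NCrl in the study's methods) were injected intraperitoneally once a day, 21 times, with THC at 10 mg/kg or with vehicle, from postnatal day (PND) 28 to 48 and were tested from PND 63, with an age of 11 weeks on the labels. RNA came from punches of the amygdala (Amy), the ventral tegmental area (VTA), the prefrontal cortex (PFC), the nucleus accumbens (NAc) and the dorsal medial striatum (DMS, named dorsolateral striatum on the labels). A group, which is 1 treatment in 1 sex and region, had 6 libraries, and the group of male VTA with vehicle had 5, which gave 59 vehicle and 60 THC libraries. Per the study's methods, the regions were punched from the same brains and each punch gave a library of its own. Libraries of different regions therefore share mice. The mouse behind a library is not on the labels, so these libraries could not be linked. Tests between regions took them as separate, and their p-values do not account for the shared mice. The mice carried no engineered allele on the labels.

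Depth ranged from 3090998 to 77042133 counts per library with a median of 22092612. PFC and DMS libraries lie in one table and those of the NAc, Amy and VTA in another, so for a difference between regions of different tables, region and table cannot be told apart. The labelled regions carried their defining markers: the summed level of 6 cortical and basolateral projection neuron genes was 3030 ± 142 CPM in the PFC (SD, n = 24), that of 6 medium spiny neuron genes was 6236 ± 676 in the DMS and 2645 ± 438 in the NAc (n = 24 each), and that of 6 dopaminergic genes was 2924 ± 800 in the VTA (n = 23). No list marked the Amy alone, where the projection neuron genes had 877.3 ± 275.9 CPM and 6 hypothalamic and medial amygdala genes 77.5 ± 30.7 (n = 24), the latter below the VTA at 247.7 ± 65.7. FTL_344, which is labelled as female Amy with THC, held more RNA of Y chromosome genes than Xist, and FTL_356, labelled as male Amy with THC, showed the reverse, so the THC comparisons of the Amy are given with and without them. Vehicle libraries hold neither. In punches of tissue, fewer cells of a type and less RNA per cell cannot be told apart.

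The 5 enzymes are serine hydrolases, and the serine that attacks the substrate sits in a short glycine-X-serine-X-glycine element. The stretches that encode this element are shown because they mark the shared chemistry of otherwise distinct genes. Each is 45 bases of coding sequence from the GENCODE annotation of GRCm38 (the assembly also called mm10), read 5′ to 3′ on the coding strand, with the 15 bases of the 5 codons in capitals.
Dagla: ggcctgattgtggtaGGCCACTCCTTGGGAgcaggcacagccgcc
Daglb: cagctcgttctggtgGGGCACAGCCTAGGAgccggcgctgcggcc
Mgll: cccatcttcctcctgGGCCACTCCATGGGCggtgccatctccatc
Abhd6: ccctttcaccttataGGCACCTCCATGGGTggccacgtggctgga
Abhd12: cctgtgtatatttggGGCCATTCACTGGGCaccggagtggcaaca
The element was searched in the coding frame as a glycine codon, a histidine or threonine codon, a serine codon, any codon and a glycine codon, and 1 match was found in each gene. Its serine is codon 472 of 1044 in Dagla, 443 of 669 in Daglb and 246 of 398 in Abhd12, and codons 122 and 148 in Mgll and Abhd6.

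Dagla lies on the minus strand of chromosome 19 (chr19:10245265-10304877, GRCm38), and its element is in exon 14 of 20 (chr19:10254884-10254928). Daglb lies on the plus strand of chromosome 5 (chr5:143464584-143505942) with the element in exon 11 of 15 (chr5:143494548-143494592). Mgll is on the plus strand of chromosome 6 (chr6:88724412-88828360), where the bases shown run across an intron (chr6:88808121-88809353) and the serine codon is in exon 4 of 9. Abhd6 is on the plus strand of chromosome 14 (chr14:8002902-8056763), with the element in exon 5 of 9 (chr14:8042724-8042768). Abhd12 is on the minus strand of chromosome 2 (chr2:150832493-150904741), and its bases also run across an intron (chr2:150838769-150839754), with the serine codon in exon 7 of 13. The longest run of bases that any pair of the coding transcripts shares is 14 (Dagla and Daglb), against reads of 100 bases, and every member had a whole expected count in all libraries, so no fraction of a read was assigned to a member.

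All 5 genes were highest in the PFC, and they differed in how steeply they fell off elsewhere. Levels are in CPM, the counts of a gene at a common library total, after TMM scaling, which assumes that most genes do not differ between libraries, and the values of this section are those of vehicle libraries. A gene was called different at an adjusted p under 0.05 in edgeR's quasi-likelihood test and a log2 fold change of 0.4 or more in size. Mgll had the steepest pattern, with a mean level 4.31-fold higher in the PFC than in the VTA. The ratio of the highest to the lowest region was 2.56 for Dagla, 1.73 for Daglb, 1.67 for Abhd6 and 1.40 for Abhd12. On the log2 scale the span between regions was 2.11 for Mgll and 0.49 for Abhd12, against a median of 0.91 over all 18932 genes past the filter.

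Of the synthetic enzymes, Dagla ranged in the PFC from 124.7 to 148.5 CPM with a median of 136.8 (n = 12). DMS libraries ranged from 66.6 to 109.0 CPM (median 86.2), Amy libraries from 47.6 to 85.1 (median 68.5), NAc libraries from 57.1 to 71.3 (median 63.6) and VTA libraries from 44.2 to 74.0 (median 50.2, n = 11). Every PFC library therefore stood above every library of the other regions, while the ranges of the other regions overlapped. Against the PFC the log2 fold change was -0.64 ± 0.07 (SE) in the DMS, -1.03 ± 0.07 in the Amy, -1.10 ± 0.07 in the NAc and -1.36 ± 0.08 in the VTA, all called. Between neighbours in this order, the Amy was 0.39 lower than the DMS (log2 fold change -0.39 ± 0.07, adjusted p = 2.6e-06, under the fold minimum). Amy and NAc did not differ beyond their spread (0.07, 95% interval -0.07 to 0.22), and the VTA was lower than the NAc by less than the fold minimum (-0.26 ± 0.07, adjusted p = 0.00145). In THC libraries the VTA was called lower in Dagla than the NAc (-0.50 ± 0.05) and the Amy (-0.70 ± 0.05), the latter -0.33 ± 0.07 with vehicle and called in males alone (-0.45). Dagla was called higher in the DMS than in the NAc (-0.46 ± 0.07 as NAc against DMS), a difference of -0.28 in males alone and of -0.26 in THC libraries, below the fold minimum, and the Amy was called lower than the DMS in females alone (-0.66).

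Daglb showed a different picture, with a raised PFC and near-equal values elsewhere. PFC libraries ranged from 43.8 to 51.2 CPM (median 48.0), and the libraries of the other regions lay between 23.8 and 34.0 CPM, and the median was 32.0 for the VTA, 28.6 for the DMS, 28.1 for the Amy and 27.5 for the NAc. The ranges of the PFC and of the other regions did not overlap. The differences from the PFC were called in each region, from -0.58 ± 0.04 in the VTA to -0.78 ± 0.04 in the NAc. The VTA, where Dagla was lowest, was higher in Daglb than the DMS (0.13 ± 0.04, adjusted p = 0.00163), the Amy (0.18 ± 0.04, adjusted p = 1.46e-05) and the NAc (0.20 ± 0.04, adjusted p = 3.28e-06), each by less than the fold minimum. DMS, Amy and NAc did not differ beyond their spread in Daglb, with adjusted p of 0.083 to 0.756.

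Mgll, which removes most 2-AG, fell in a clear series of steps. Libraries of the PFC ranged from 266.9 to 321.7 CPM (median 285.6), those of the NAc from 175.2 to 247.2 (median 212.6), those of the DMS from 151.9 to 185.6 (median 169.4), those of the Amy from 94.4 to 142.0 (median 111.8) and those of the VTA from 57.4 to 81.9 (median 66.8). NAc and DMS were the only neighbours in this order whose ranges overlapped. The steps from the PFC to the NAc (-0.42 ± 0.05), from the DMS to the Amy (-0.62 ± 0.05) and from the Amy to the VTA (-0.71 ± 0.06) were called. The first of these calls was the least firm, with -0.30 in females alone and -0.30 in THC libraries, both under the fold minimum. The NAc was higher than the DMS by less than the fold minimum (0.35 ± 0.05, adjusted p = 1.25e-07, and 0.42 and called in THC libraries), the reverse of the order of Dagla in these 2 parts of the striatum.

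**Figure D1:**
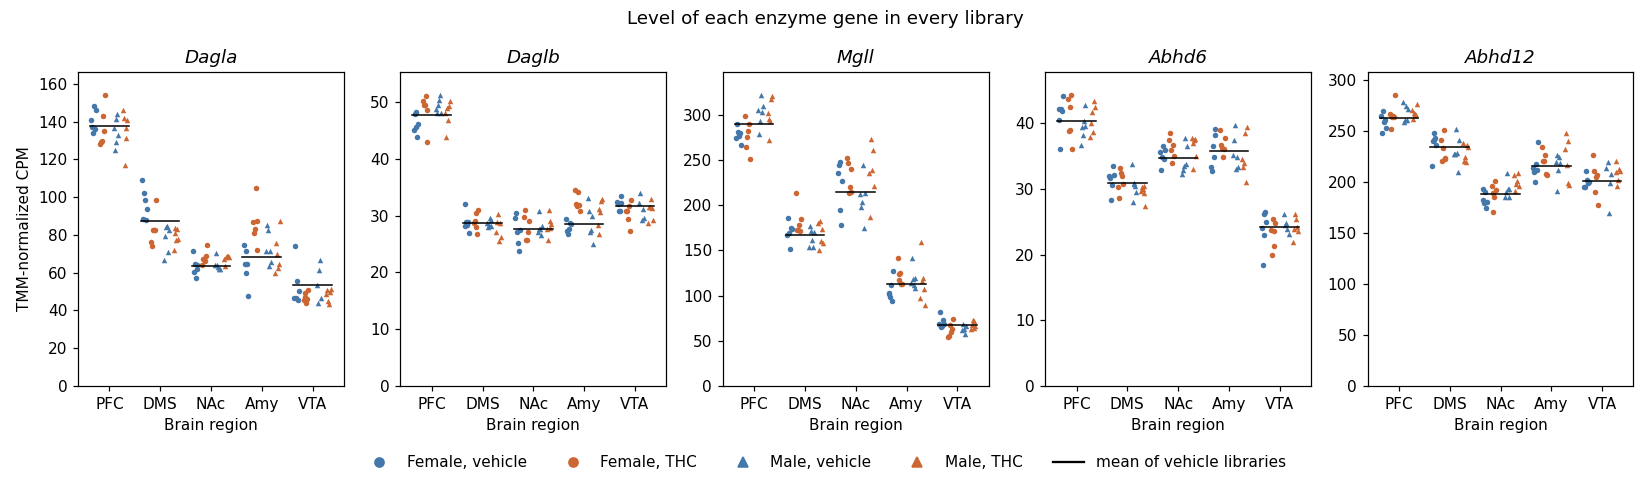
Level of each of the 5 genes in every library (TMM-normalized CPM, linear axes from 0) by region. Circles are female and triangles male libraries, blue is vehicle and orange THC, and the line is the mean of the vehicle libraries of a region. All 5 genes were highest in the PFC, Mgll descended from a vehicle mean of 290.1 CPM in the PFC to 67.3 in the VTA, and Abhd12 stayed between 188.0 and 263.3.

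The other hydrolases varied less. Abhd6 ranged from 36.0 to 44.2 CPM in the PFC (median 40.4) and from 18.4 to 26.4 in the VTA (median 24.5), with no overlap, and the difference was called (-0.74 ± 0.04). Amy, NAc and DMS lay between them with medians of 35.0, 34.7 and 30.9 CPM, and Amy and NAc did not differ beyond their spread (0.0022, 95% interval -0.08 to 0.08). The VTA was also called lower in Abhd6 than the NAc and the Amy (-0.54 ± 0.04 for each). Just under the fold minimum were the DMS against the PFC (-0.36 ± 0.04, and -0.42 and called in THC libraries) and the VTA against the DMS (-0.38 ± 0.04, and -0.42 and called in females alone and without FTL_369 of the male VTA with vehicle). Abhd12 had the flattest profile, its median falling from 261.1 CPM (PFC) over 238.1 (DMS), 215.9 (Amy) and 200.3 (VTA) to 187.8 (NAc). Its only called difference was the lower level in the NAc than in the PFC (-0.47 ± 0.03). That of the VTA from the PFC was just under the fold minimum (-0.38 ± 0.03) and was called with DESeq2 (-0.40), with its size factors in edgeR (-0.41) and in males alone (-0.41). Amy and VTA, neighbours in that order, did not differ at the adjusted threshold (-0.07 ± 0.03, adjusted p = 0.0673).

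Read against all genes, the members were not unusual in how often they were called between regions, which are very different tissues. Called members numbered 3 of 5 between DMS and PFC, where 49.2% of 17712 genes were called, 4 between NAc and PFC (45.2% of genes), 3 between Amy and PFC (37.4%) and 4 between VTA and PFC (55%). Between NAc and DMS 1 member was called (30.7% of genes), as between Amy and DMS (43%) and between Amy and NAc (24.8%). The VTA differed in 2 members from the DMS (57.6% of genes), from the NAc (52.1%) and from the Amy (43.4%). The share of all genes whose ranges do not overlap between regions was not counted, so the separations given above carry no such background. Without TMM scaling every gene moves by the same amount, 0.18 on the log2 scale in favour of the VTA over the PFC and between 0.07 and 0.18 for the other 3 regions. On that scale the differences of the NAc from the PFC in Mgll (-0.25) and Abhd12 (-0.30) and that of the NAc from the DMS in Dagla (-0.36) fell below the fold minimum, and that of the NAc from the DMS in Mgll (0.45) rose above it. All 5 genes remained highest in the PFC on that scale, the order of regions stayed as given for Dagla, Mgll, Abhd6 and Abhd12, and for Daglb the DMS in place of the NAc came last.

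**Figure D2:**
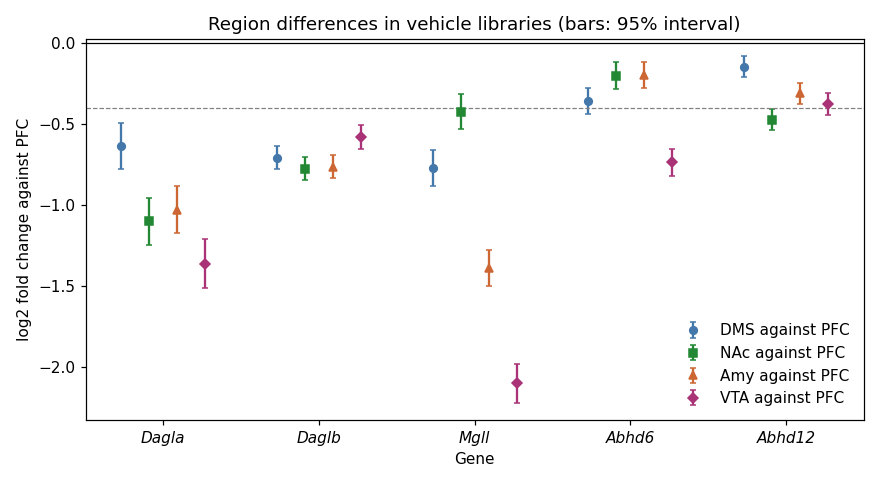
Log2 fold change of each gene in the DMS, NAc, Amy and VTA against the PFC in vehicle libraries, with 95% intervals. The dashed line is the fold minimum of -0.4. Mgll reached -2.10 in the VTA, Dagla -1.36, and Abhd12 stayed between -0.15 and -0.47.

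Levels of different genes can be compared only per length. Per kilobase of annotated exon, the mean CPM in the PFC was 93.3 for Abhd12, 57.1 for Mgll, 23.9 for Dagla, 17.0 for Abhd6 and 4.99 for Daglb, and in the VTA 71.3, 13.3, 9.34, 10.2 and 3.30. Daglb was the lowest of the 5 on this scale in each region. Dagla was above Abhd6 in the PFC and DMS and below it in the NAc, Amy and VTA. With the length of a single coding transcript in place of all exons, Mgll rather than Abhd12 came first in the PFC, DMS and NAc, so the order of that pair depends on which transcripts are present.

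The ratio of Dagla to Mgll mRNA in the same library is a description that no scaling of libraries affects. It leaves out the other members and is not corrected for length. It is therefore not a measure of the balance between making and removing 2-AG in a region. In vehicle libraries this ratio of CPM was lowest in the NAc at 0.301 ± 0.037, followed by the PFC at 0.476 ± 0.042, the DMS at 0.522 ± 0.076, the Amy at 0.613 ± 0.088 (SD, n = 12 each) and the VTA at 0.803 ± 0.163 (n = 11). All NAc libraries (highest 0.355) lay below all libraries of the other regions (lowest 0.375, in the Amy). The ratio of Abhd12 to Mgll was 0.889 ± 0.118 in the NAc and 0.909 ± 0.041 in the PFC, and it rose over the DMS (1.40 ± 0.10) and Amy (1.93 ± 0.18) to 3.01 ± 0.33 in the VTA. The ratio of Dagla to Daglb was lowest in the VTA (1.71 ± 0.34). It was 3.03 ± 0.39 in the DMS and 2.89 ± 0.22 in the PFC, which overlapped, with the DMS above the PFC in vehicle females (3.34 against 3.05) and level with it in vehicle males (2.72 against 2.74).

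**Figure D3:**
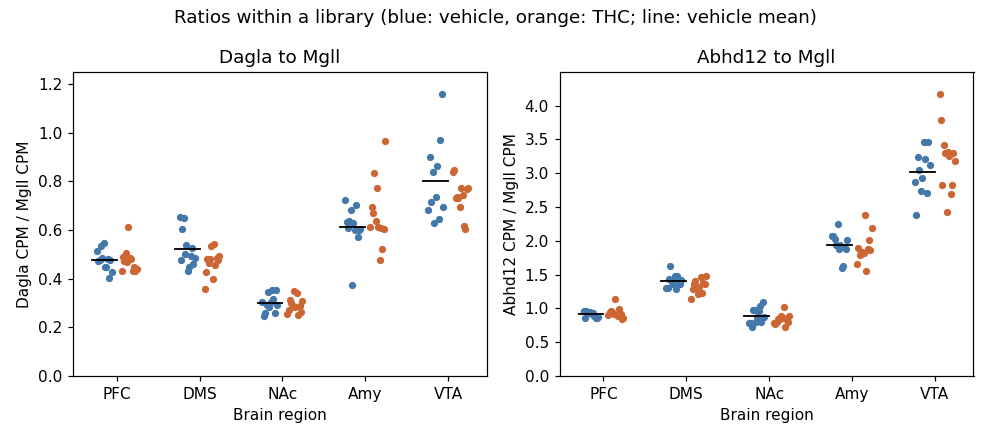
Ratio of Dagla to Mgll and of Abhd12 to Mgll in CPM in each library by region, with vehicle in blue, THC in orange and the mean of vehicle libraries as a line. The ratio of Dagla to Mgll was lowest in the NAc (mean 0.301) and highest in the VTA (0.803), and that of Abhd12 to Mgll rose to 3.01 in the VTA.

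Over the 119 libraries, region accounted for 96.5% of the variance of log2 CPM of Mgll, 91.1% for Daglb, 89.4% for Dagla, 88.4% for Abhd6 and 81.9% for Abhd12. High shares were common. Of all genes past the filter, 97.8% had a lower share than Mgll, 85.2% than Daglb, 80.7% than Dagla, 78.6% than Abhd6 and 65.4% than Abhd12. Among 18931 other genes, the 3 whose log2 CPM followed Dagla most closely were Cobl (Pearson r = 0.971), Dclk1 (0.962) and Sort1 (0.958). For Daglb they were Sel1l3 (0.948), Dkk3 (0.941) and Snap25 (0.938), for Mgll C130071C03Rik (0.947), Dact2 (0.944) and Brinp1 (0.928), for Abhd6 Cstf2t (0.925), Prickle2 (0.916) and Tbpl1 (0.914), and for Abhd12 Atp6v1e1 (0.939), Napa (0.922) and Atp6v1h (0.910). These correlations describe a pattern that 5 regions set almost alone, and libraries of a region share that region, so they carry no test.

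Of the 5 members in 10 comparisons of THC with vehicle, 1 value passed the thresholds, that of Dagla in the female Amy. Dagla ranged in vehicle libraries of the female Amy from 47.6 to 74.5 CPM (median 64.4) and in THC libraries from 72.2 to 104.9 (median 85.0). The groups overlapped by a single vehicle library, the highest, which stood above the lowest THC library. The log2 fold change was 0.43 ± 0.10 (95% interval 0.20 to 0.65, adjusted p = 0.0452), and Dagla was the 1 member of 5 called, where 1.57% of 17003 genes were called. The study itself singled out this gene in this region from the same libraries, so the call is not independent evidence.

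Daglb ranged from 26.8 to 29.3 CPM in vehicle libraries (median 28.1), and THC libraries lay between 30.9 and 34.5 (median 31.9), so that every THC library stood above every vehicle library. Such a separation upward was seen in 2.59% of genes. The log2 fold change of 0.20 ± 0.05 had an adjusted p of 0.0410 and was below the fold minimum, and 1.88% of genes were higher with THC at that adjusted p alone. Mgll ranged from 94.4 to 127.0 CPM in vehicle libraries (median 102.3), and THC libraries lay between 113.2 and 141.5 (median 120.4), with overlapping groups and a log2 fold change of 0.20 ± 0.08 that missed the threshold (adjusted p = 0.161). Abhd6 (0.03, 95% interval -0.09 to 0.15) and Abhd12 (0.02, 95% interval -0.10 to 0.13) were within their spread. The median of the 5 log2 fold changes was 0.20, which is the value of Mgll, against -0.01 over all genes. Regardless of sign, the median size of the log2 fold change over all genes was 0.13.

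The calls in the female Amy were near the threshold. Leaving out any 1 of 11 of the 12 libraries ended the call of Dagla, with a log2 fold change of 0.35 to 0.46 and an adjusted p of 0.0286 to 0.119 over the 12 fits. The exception was FTL_343, without which it was 0.46 ± 0.10 with an adjusted p of 0.0317, and without FTL_338 the adjusted p of 0.0286 passed but the fold change of 0.35 did not. Without FTL_344, whose sex genes go against its label and which had 87.6 CPM of Dagla, the values were 0.42 ± 0.11 (adjusted p = 0.0862) for Dagla and 0.22 ± 0.05 (adjusted p = 0.0552) for Daglb. Mgll was then 0.22 ± 0.08 (adjusted p = 0.199), Abhd6 0.02 ± 0.06 and Abhd12 0.04 ± 0.06. Without FTL_338 Mgll had an adjusted p of 0.0219 at 0.26 ± 0.06, under the fold minimum. Calls among all genes moved at the same time, from 1.57% to between 0.323% and 1.67% over the 12 fits.

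Other measures moved with treatment in the same libraries. The summed level of the 6 cortical and basolateral projection neuron genes ranged from 633.1 to 921.8 CPM with vehicle and from 952.1 to 1298 with THC in the female Amy, with no overlap and 3 of the 6 genes called higher. That of the 6 hypothalamic and medial amygdala genes ranged from 48.9 to 118.0 CPM with vehicle and from 35.3 to 72.5 with THC, with 1 of 6 called lower. That of the 6 medium spiny neuron genes ranged from 196.3 to 484.1 and from 433.6 to 721.2 CPM, with none called. The 6 dopaminergic genes, low in the Amy, summed to 41.5 ± 4.5 CPM with vehicle and 33.7 ± 2.6 with THC (SD, n = 6 each, 1 of 4 tested called lower), and 1 of 6 interneuron genes was called lower. Oligodendrocyte genes summed to 2144 to 7057 CPM with vehicle and 2339 to 4147 with THC, and choroid plexus genes to 42.6 to 1183 and 34.2 to 3667. None of the tested genes of these 2 lists was called, where 4 of 6 choroid plexus genes were tested. Without FTL_344, which had 2294 CPM of choroid plexus genes, the range of projection neuron genes with THC was the same, 3 of them and 1 hypothalamic gene were called, and no dopaminergic gene was. Each marker of these lists had a count in at least 1 Amy library. Depth ranged from 13018420 to 46044478 counts with vehicle and from 20341366 to 76111373 with THC. The part of these differences in the values of Dagla and Daglb was not tested.

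In the male Amy the members did not move past any threshold. Dagla ranged from 63.7 to 85.1 CPM in vehicle libraries (median 71.5), and THC libraries lay between 59.9 and 87.2 (median 67.5), and the highest THC value belonged to FTL_356, the library whose sex genes go against its label. The log2 fold change was -0.07 ± 0.10 (adjusted p = 1.00), and -0.13 ± 0.08 without FTL_356. Daglb was 0.07 ± 0.08 and Mgll -0.05 ± 0.12, and without FTL_356 they were 0.05 ± 0.08 and 0.02 ± 0.11. That library had 1546 CPM of the projection neuron genes, against 458.0 to 961.3 in the other male THC libraries of the Amy. Of 15321 genes 0% were called. The difference between the sexes in the effect of THC on Dagla, taken as male minus female, was -0.49 ± 0.15 (adjusted p = 0.235) and was not called, where 0.0059% of 16956 genes were. It was -0.56 ± 0.15 without both libraries (adjusted p = 0.196). A difference between the sexes in the Amy was therefore not shown by the adjusted test, and the effect with sex as a covariate was 0.18 ± 0.09 for Dagla (adjusted p = 0.704) and 0.14 ± 0.05 for Daglb (adjusted p = 0.677).

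**Figure D4:**
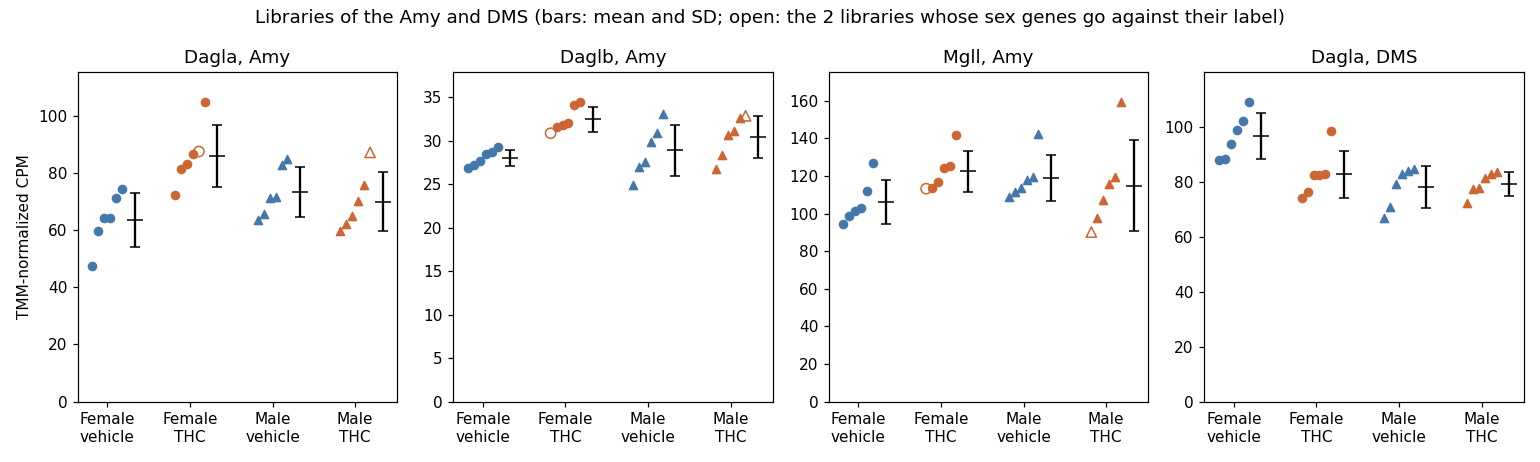
Dagla, Daglb and Mgll in every Amy library and Dagla in every DMS library, in TMM-normalized CPM, by sex and treatment, with the mean and SD of each group. Open symbols are the 2 Amy libraries whose sex genes go against their label. Daglb with THC (30.9 to 34.5 CPM) stood above vehicle (26.8 to 29.3) in the female Amy without overlap, and Dagla in the female DMS had a lower THC mean (82.7 against 96.6 CPM).

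In the female DMS, Dagla was lower with THC in size but not by the adjusted test. Vehicle libraries ranged from 87.7 to 109.0 CPM (median 96.3) and THC libraries from 73.9 to 98.4 (median 82.4), where a single THC library, FTL_296, stood above the lowest vehicle library. The log2 fold change was -0.22 ± 0.07 (adjusted p = 0.315), in a comparison that called 0.0127% of 15800 genes. In the male DMS it was 0.03 ± 0.06, and the difference between the sexes was 0.25 ± 0.09 (adjusted p = 0.767), where 0% of 16605 genes were called. The other 4 members had log2 fold changes of -0.03 to 0.10 in the female DMS and -0.05 to 0.03 in the male DMS. In the female libraries, projection neuron genes summed to 18.2 to 351.3 CPM with vehicle (median 24.9) and 21.4 to 52.3 with THC. Choroid plexus genes summed to 13.7 to 88.4 CPM (median 15.9) and 13.8 to 19.7. Medium spiny neuron genes summed to 5345 to 7215 CPM (median 6935) and 6031 to 6789. Of 6 genes in each list, 2 projection neuron, 2 choroid plexus and 6 medium spiny neuron genes were tested, and none of those was called. The part of these lists in the values of Dagla and other genes of these libraries was not tested.

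In the VTA, Dagla had a mean of 53.2 ± 10.9 CPM with vehicle and 47.2 ± 2.6 with THC in females (SD, n = 6 each), and 48.1 ± 3.3 with THC in males (n = 6). The 5 vehicle libraries of the male VTA had 44.2, 46.4, 53.3, 61.2 and 66.5 CPM of Dagla, and the value of 61.2 came from the shallowest library, with 205 counts of the gene. The THC libraries of the male VTA, at 43.3 to 51.3 CPM, began below the lowest vehicle library and ended below the median of the vehicle libraries. The log2 fold change was -0.17 ± 0.10 in females and -0.16 ± 0.10 in males, and with sex as a covariate -0.17 ± 0.07 (adjusted p = 0.462). In females it fell to -0.05 without FTL_358, the vehicle library with 74.0 CPM. Mgll was -0.18 ± 0.08 in females (adjusted p = 0.521) and 0.09 ± 0.06 in males, with a difference between the sexes of 0.26 ± 0.10 (adjusted p = 0.780). In the same female libraries, medium spiny neuron genes summed to 184.7 to 198.1 CPM with vehicle and 117.6 to 173.8 with THC, without overlap. Dopaminergic genes summed to 3149 ± 380 and 2447 ± 969 CPM, and microglial genes to 341.8 ± 28.4 and 271.1 ± 35.1. No gene of these 3 lists was called, and their part in the values of Dagla and Mgll was not tested.

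In the NAc, Mgll ranged from 175.2 to 244.0 CPM in vehicle libraries (median 207.5), and THC libraries lay between 186.6 and 272.7 (median 237.6) in males, and the log2 fold change of 0.18 ± 0.09 did not pass (adjusted p = 0.313). Dagla was 0.10 ± 0.05 in females and 0.07 ± 0.04 in males, and 0.08 ± 0.03 with sex as a covariate (adjusted p = 0.407). Medium spiny neuron genes of the male NAc summed to 1735 to 2629 CPM with vehicle and 2354 to 3704 with THC. Hypothalamic and medial amygdala genes summed to 18.1 to 38.9 CPM with vehicle and 9.2 to 18.9 with THC. Projection neuron genes summed to 39.4 to 171.1 CPM and 31.4 to 61.0. No tested gene of these lists was called, and their part in the values of Mgll and Dagla was not tested. In the PFC the members lay closest to their vehicle levels, with log2 fold changes of -0.04 to 0.07 in females and males and 95% intervals within -0.13 and 0.16. In the 8 comparisons other than the female Amy and female DMS, 0% of genes were called, and with sex as a covariate 0% were called in each of the 5 regions.

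**Figure D5:**
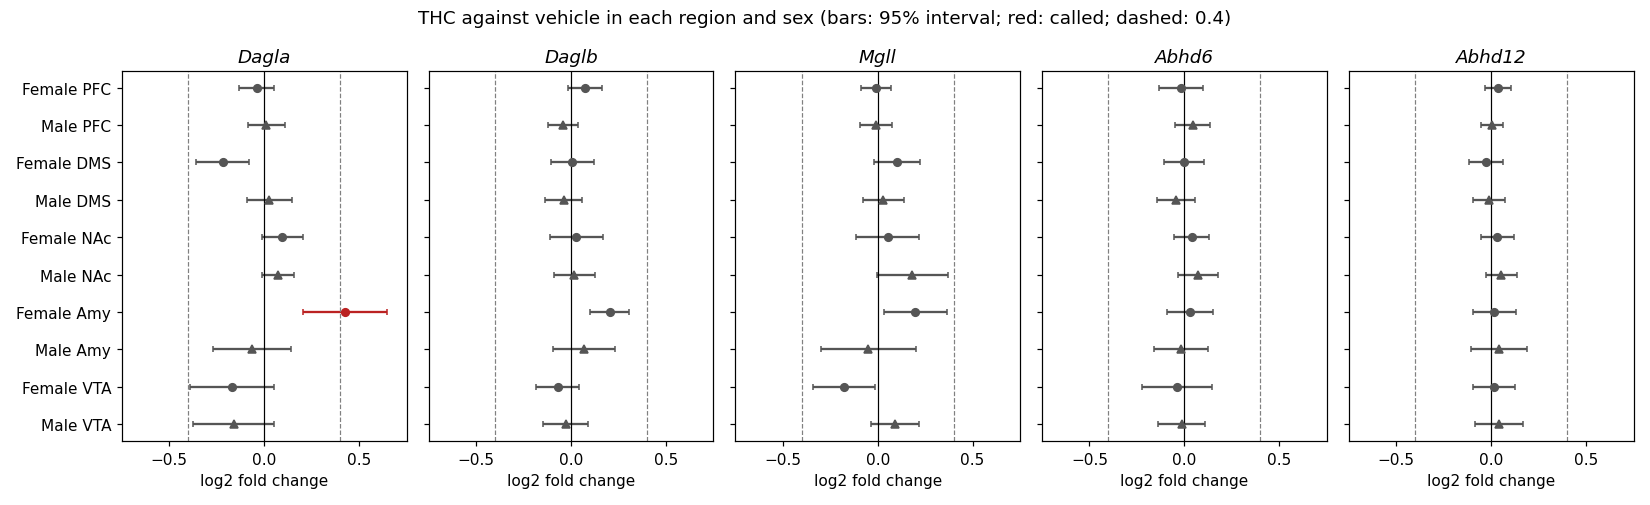
Log2 fold change of each gene between THC and vehicle libraries, by region and sex, with 95% intervals. Circles are females and triangles males, red marks the 1 called value, and dashed lines mark the fold minimum of 0.4 in either direction. Dagla in the female Amy (0.43) is the called value, and the values for Abhd6 and Abhd12 lie between -0.05 and 0.07 in the 10 comparisons.

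The effect of THC was also compared between regions in 1 fit of the 60 female libraries. Dagla was called (F = 9.66, adjusted p = 0.00152), where 4.67% of 18196 genes were, and the adjusted p was 0.00332 without FTL_344. Its log2 fold changes in the fits of single regions were positive in the Amy (0.43) and NAc (0.10) and negative in the DMS (-0.22), VTA (-0.17) and PFC (-0.04). The test uses the same libraries as the comparisons above and was chosen with their results known, so it restates these values as 1 number and adds no independent evidence. Daglb (adjusted p = 0.0712) and Mgll (adjusted p = 0.105) missed the threshold, and Abhd6 and Abhd12 had adjusted p of 0.930 and 0.894. In the 59 male libraries 0% of 18250 genes were called, and the lowest adjusted p among the members was 0.882. The libraries were taken as separate, since those of a mouse could not be linked.

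Sex itself moved single members by less than the fold minimum. With treatment as a covariate, Mgll in the PFC was higher in males (log2 fold change 0.12 ± 0.03, adjusted p = 0.0232, where 1.86% of genes passed that adjusted p). Its mean was 302.1 ± 14.6 CPM in males and 278.1 ± 7.7 in females with vehicle, and 300.3 ± 17.8 against 276.9 ± 17.1 with THC (SD, n = 6 each). Dagla in the DMS was lower in males (-0.17 ± 0.05, adjusted p = 0.0326, where 11.1% of genes passed). Vehicle males ranged from 66.6 to 84.6 CPM and vehicle females from 87.7 to 109.0 without overlap, whereas with THC the means were 79.2 ± 4.3 and 82.7 ± 8.6 CPM. The share of all genes that separate in this way between vehicle males and females was not counted. No member passed between the sexes in the NAc (2.27% of genes), the Amy (0.018%) or the VTA (0.163%).

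The rest of the pathway was followed through 6 lists with 56 genes, of which 52 were tested in the female Amy. Of these 4 were called, all higher, where 1.57% of all genes were called, and 0 in each of the other 9 comparisons. The lists were written with earlier results of these data known, and the study itself reported Cnr1 as raised in the Amy. These counts are therefore not independent evidence. Projection neuron genes were higher with THC in the same libraries, and their part in the values of the listed genes was not tested. Without FTL_344 1 of the 4 was called, Chrm1 (0.50 ± 0.09, adjusted p = 0.0265). Over the 12 fits that left out 1 library, Chrm1 was called in 12, Dgkz in 3, Cnr1 in 2 and Abhd2 in 1. Cnr1, the CB1 receptor, ranged from 113.5 to 196.2 CPM with vehicle and from 193.8 to 246.6 with THC in the female Amy (log2 fold change 0.45 ± 0.11, adjusted p = 0.0438). Among 13 genes for the steps that make diacylglycerol, Chrm1, the M1 muscarinic receptor coupled to Gq, was called (0.50 ± 0.08, adjusted p = 0.0117), while Plcb1, a phospholipase C (0.48 ± 0.13, adjusted p = 0.0761), and Homer1, a scaffold of group I metabotropic glutamate receptors (0.40 ± 0.12, adjusted p = 0.0889), were not. Of 10 diacylglycerol kinases, which remove the substrate of the lipases, Dgkz was called (0.44 ± 0.10, adjusted p = 0.0359). Of the 15 tested other alpha/beta hydrolase domain genes, Abhd2 was called (0.55 ± 0.13, adjusted p = 0.0424). None of 6 anandamide enzymes was called, with Faah, which degrades anandamide, at 0.19 ± 0.06 (adjusted p = 0.0896), nor any of 6 genes of arachidonate release and prostaglandin synthesis.

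In the female DMS, Cnr1 was the listed gene with the smallest p. It ranged from 242.3 to 407.4 CPM with vehicle and from 180.7 to 293.1 with THC, with a log2 fold change of -0.48 ± 0.14 that did not pass (adjusted p = 0.332). Plcb1 followed with -0.15 ± 0.05 (adjusted p = 0.360). Cnr1 and Dagla thus had positive values in the female Amy and negative ones in the female DMS, of which the values of the Amy passed.

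Within regions the members moved together only in part. Of 50 correlations of log2 CPM (10 pairs in 5 regions, n = 23 or 24 libraries), 2 had adjusted p-values under 0.05 for both Pearson's r and Spearman's rho. These were Mgll with Abhd12 in the Amy (r = 0.637, rho = 0.666, adjusted permutation p = 0.0377 and 0.0280) and Mgll with Abhd6 in the NAc (r = 0.597, rho = 0.610, adjusted permutation p = 0.0377 and 0.0460). Without the 2 libraries farthest from the median of Mgll, r was 0.466 (permutation p = 0.0289) and 0.588 (permutation p = 0.00441), and after subtraction of group means it was 0.688 and 0.509. For the Amy pair r was 0.592 without FTL_344 and FTL_356. The same pair, Mgll and Abhd12, had the other sign in the VTA (r = -0.368, rho = -0.440), short of the threshold (adjusted permutation p = 0.316 and 0.240). Daglb with Mgll in the NAc passed for r alone (r = 0.607, rho = 0.574, adjusted permutation p = 0.0377 and 0.0660). Dagla and Daglb in the Amy had r = 0.529, which missed the adjusted threshold (adjusted permutation p = 0.0914) and was 0.260 after subtraction of group means. The median r over the 10 pairs was 0.341 (NAc), 0.167 (Amy), 0.119 (DMS), 0.043 (PFC) and -0.027 (VTA).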

How the data were processed

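Polyadenylated RNA of 119 punches was sequenced in pairs of reads of 100 bases, per the labels and the study's methods. The authors trimmed reads with cutadapt 2.9, aligned them to mm10 with STAR 2.7.3a and counted them with RSEM 1.3.1, per the submitters' processing notes. The annotation release they used is not given in the sources used here. The deposited values are unnormalized expected counts of each gene, of which 4.90% were not whole. They were rounded. Every per-library column was used (0 left out), and no pair of libraries held identical values. The study's methods state that a male VTA sample was taken out as an outlier, without naming it, and no library was taken out here on that ground.

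Groups came from the labels, and p-values set a difference against the spread between libraries, taken as separate also where regions share mice. Tests used edgeR 4.0.16 in R 4.3.3 (filter on low counts, TMM, robust quasi-likelihood F test, whose p-values are bounded by a Poisson test), on the libraries of the comparison, with Benjamini-Hochberg adjustment over all genes tested. Depth limits how small a difference can be seen, and the shallowest library held 83 to 570 counts of a member. Within-region correlations used log2 CPM with a prior count of 2 and 100000 permutations. The named genes were the 5 members, the 3 genes most like each in pattern, and of the pathway lists those called, otherwise up to 2 per list with the smallest p. Alternatives were DESeq2 1.42.0, its size factors in edgeR, no filter, 4 groups in 1 fit, 1 sex, THC libraries and each library left out. The tests were tried on simulated counts. The members and lists were chosen with earlier results of these data known. Sequences and positions came from GENCODE M21.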

Additional observations from a re-analysis of the deposited data

Results flagged for a closer look

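In 100 groups of libraries (5 genes in 20 groups of 5 or 6), 9 single libraries stood apart by Dixon's ratio, a rule that chance alone meets in about 1 of 20 groups, or 5 of 100. Dagla had 4 of them. The highest was FTL_296 of the female DMS with THC at 98.4 CPM (next 82.8). FTL_322 of the male NAc with vehicle had 70.2 CPM (next 64.1), and FTL_358 of the female VTA with vehicle had 74.0 (next 55.8). FTL_328 of the male NAc with THC was lowest at 63.6 CPM (next 67.2). Without FTL_296 the log2 fold change of Dagla in the female DMS was -0.27 (adjusted p = 0.262), and without FTL_358 that of the female VTA was -0.05 (adjusted p = 0.868).

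Daglb was lowest in FTL_272 of the female PFC with THC, at 42.9 CPM (next 48.5). Mgll was highest in FTL_291 of the female DMS with THC at 213.5 CPM (next 184.4) and in FTL_346 of the male Amy with vehicle at 142.0 CPM (next 119.4). Abhd6 was lowest in FTL_308 of the male DMS with THC at 27.4 CPM (next 29.4), and Abhd12 was highest in FTL_323 of the male NAc with vehicle at 208.8 CPM (next 193.7).

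In edgeR's F test over 5 regions, the effect of THC on Dagla in females had an adjusted p of 0.00152 for a difference between regions. The test was chosen with these values known and uses the same libraries, whose mice could not be linked. Of the single regions the Amy passed, and the DMS (adjusted p = 0.315) and VTA (adjusted p = 0.624) did not. Neither library whose sex genes go against its label stood apart in the level of a member.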

How the results depend on the processing

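Of the counts of members called, that of the female Amy depended most on the libraries. Over the 12 fits that left out 1 library it was 0 to 1, against 1 with all, and it was 2 with no fold change minimum. DESeq2 (0.00498), its size factors in edgeR (0.0465), no filter (0.0492) and 4 groups in 1 fit (0.0476) kept the adjusted p of Dagla there under 0.05. Daglb had an adjusted p of 0.00359 with DESeq2, and of 0.0875 with no filter and 0.0879 with 4 groups in 1 fit. With DESeq2, 3 members in place of 1 passed the comparison of THC effects between regions of females, with adjusted p of 3.73e-05 for Dagla, 0.020 for Daglb and 0.0473 for Mgll. Between NAc and DMS the count was 0 in males alone, and between Amy and DMS 2 in females alone, against 1 for each. Of 52 pathway genes tested in the female Amy, 1 to 4 were called over the 12 fits without 1 library, an alternative chosen after seeing the data, against 4 with all. The causes were not tested. The other counts stayed within 1.5 times. No called value changed sign. Of uncalled values of THC against vehicle, 48 of 595 changed sign with a library left out, each of at most 0.05 in size with all libraries.

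Without TMM, the mean over all PFC libraries moved by more than 1 SD, to 126.5 CPM for Dagla, 44.3 for Daglb, 267.4 for Mgll, 37.4 for Abhd6 and 245.1 for Abhd12. No paired analysis was possible because the labels carry a number for each library and none for the mouse. Groups of 5 or 6 libraries and the depth of the shallowest limit what was detectable.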
